A study of Mus musculus with 6 samples.

Results

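The amino acid transporter families of the SLC1, SLC3, SLC6, SLC7, SLC36, SLC38 and SLC43 groups were examined in cultured stromal cells of mouse bone marrow (BMSCs), plastic-adherent cells known to give rise to bone, cartilage and fat lineages. Members were all rows of the gene table whose symbol begins with Slc1a, Slc3a, Slc6a, Slc7a, Slc36a, Slc38a or Slc43a and a number, which gave 63 of 18853 genes and used no measured value. One of them, Slc7a6os, is named for its place beside Slc7a6 and encodes no carrier. The cells came from knockout and wild-type mice, were grown in αMEM with fetal bovine serum, and were profiled by RNA sequencing in 3 HRP2-KO samples, numbered 6, 7 and 44, and 3 wild-type (WT) samples, numbered 10, 11 and 12. HRP2, also called HDGFR2 and listed as Hdgfl2, is a PWWP-domain chromatin protein, and the series asks how it acts in osteogenic differentiation. The labels name no strain, age, deleted part of the gene, agent that induces differentiation, or animal behind each sample, so the p-values reflect only how far these samples spread, and that spread may be technical.

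Amino acids enter and leave cells through carriers with overlapping substrates. Some are paired with a single-pass heavy chain, SLC3A2 (CD98) or SLC3A1, which brings a transporting light chain of the SLC7 family to the cell surface, where most such light chains exchange one amino acid for another. Others take up substrates with sodium, as in the SLC1, SLC6 and SLC38 families, and a few sit in the lysosome membrane and report amino acid supply to the growth kinase mTORC1. Stromal and bone-forming cells depend on such uptake because collagen is rich in glycine and proline. When amino acids run short, the kinase GCN2 raises translation of the transcription factor ATF4, which binds composite elements near several carrier and biosynthesis genes.

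Library totals were 20184500 to 20680800 estimated counts. Hdgfl2 stood at 6.59, 5.56 and 11.8 CPM (counts scaled to library size, TMM-normalised) in HRP2-KO replicates 6, 7 and 44, against 51.4, 56.2 and 58.2 CPM in WT replicates 10, 11 and 12, so no library went against its label. HRP2-KO replicate 7 stood apart from its group. Its log2 CPM correlated across genes, which are not independent replicates, at 0.894 and 0.869 with HRP2-KO replicates 6 and 44 and at 0.923 to 0.944 with the WT libraries. Summed over 16 macrophage markers, none of which was at 0 in any library, the level was 1319, 14956 and 2741 CPM in replicates 6, 7 and 44 of HRP2-KO, against 25920, 11052 and 10224 CPM in WT replicates 10, 11 and 12. Summed over 10 marrow stromal markers, also detected in every library and dominated by Col1a1 and Col1a2, it was 28479, 23229 and 21537 CPM in HRP2-KO, against 5277, 10046 and 7619 CPM in WT. That sum is set mostly by the collagens, and 5 of the 10 markers had positive and 5 negative fold changes, and without HRP2-KO replicate 7 edgeR called 2 higher (the collagens) and 3 lower (Cxcl12, Pdgfra and Thy1). Interferon-response genes summed to 1235 CPM in HRP2-KO replicate 7, and to 108 and 111 CPM in replicates 6 and 44, against 191 to 255 CPM in WT. Marker sums of granulocytes, B cells, T and NK cells and erythroid cells were at most 6.63 CPM in any library, those of endothelial cells at most 19.8 CPM, those of osteoclasts 56.8 to 64.6 CPM in HRP2-KO and 27.8 to 37.4 CPM in WT, those of megakaryocytes 12.6 to 44.8 CPM in HRP2-KO and 37.2 to 148 CPM in WT, and those of adipocytes 39.4 to 157 CPM in HRP2-KO and 16.4 to 52.1 CPM in WT. The osteoclast sum was mostly Ctsk, at 45.7 to 56.9 CPM in HRP2-KO and 25.5 to 29.3 CPM in WT. Oscar, at a low level, was lower in every HRP2-KO library (0.397 to 0.588 CPM, against 0.646 to 0.942 CPM in WT). Pf4 was the largest part of the megakaryocyte sum in every library, and its groups overlapped. Ppbp went the other way, at 1.95 to 3.02 CPM in HRP2-KO and 0.0923 to 0.493 CPM in WT. The adipocyte sum was mostly Fabp4, while Adipoq was at most 0.0976 CPM in HRP2-KO and 1.55 to 18.9 CPM in WT. In such bulk samples fewer cells of a type and less RNA per cell cannot be told apart. HRP2-KO replicate 44 showed a length trend. On the log2 scale its 2635 shortest-transcript genes were 0.38 above and its 2635 longest 0.53 below the mean of the 6 libraries. Of the 33 members with a length, 10 fell in that longest group. The next-longest group, with 11 members, had a mean log2 deviation of -0.30 in that library.

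Promoter windows show the letters that the regulators named above are known to bind. RefSeq windows on GRCm38.p6, from 250 bases before to 50 bases after a gene's start, were found for 45 of the 63 members, in 66 windows. The ATF4-type composite element was searched as TGATGNAA on both strands and was present in 5 of the 66 member windows (7.58%) and in 3.97% of all 32851 windows. With C at its free base, TGATGCAA, it was present in 4 member windows (6.06%) and 0.895% of all, in Slc1a4, Slc7a11 and Slc7a7. Slc7a7 has overlapping windows that share the same TGATGCAA match, and both searches counted each of these windows. The lysosomal (CLEAR-type) E-box that TFEB binds was searched as TCACGTG on both strands and was present in 4 member windows (6.06%) and 3.77% of all, in Slc1a6, Slc36a1, Slc38a7 and Slc7a14. No stretch shown holds both motifs, and the E-box reads nearly the same on both strands, so the last match in Slc36a1 is 2 overlapping matches. The 4 stretches below run from 130 bases before to 20 bases after the start, 5′ to 3′ on the gene's strand, with matches in capitals, and show 2 examples of each motif in carriers described in the next paragraphs, picked by hand from the genes that hold it.
Slc1a4, chr11:20332694-20332843, minus strand: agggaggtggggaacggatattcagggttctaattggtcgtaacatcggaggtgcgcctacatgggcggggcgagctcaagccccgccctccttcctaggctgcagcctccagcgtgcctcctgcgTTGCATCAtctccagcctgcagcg
Slc7a11, chr3:50443594-50443743, minus strand: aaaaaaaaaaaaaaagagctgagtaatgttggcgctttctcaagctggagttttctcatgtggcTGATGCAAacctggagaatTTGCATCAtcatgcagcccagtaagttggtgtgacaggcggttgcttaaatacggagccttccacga
Slc36a1, chr11:55204210-55204359, plus strand: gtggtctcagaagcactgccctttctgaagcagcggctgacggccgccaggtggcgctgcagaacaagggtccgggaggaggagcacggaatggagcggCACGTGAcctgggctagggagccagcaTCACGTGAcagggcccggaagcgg
Slc38a7, chr8:95853472-95853621, minus strand: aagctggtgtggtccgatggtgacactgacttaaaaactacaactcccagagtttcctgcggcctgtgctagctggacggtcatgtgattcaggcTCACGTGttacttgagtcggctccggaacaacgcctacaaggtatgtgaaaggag
In Slc7a11 the forward match begins 66 bases and the reverse match 47 bases before the start, and in Slc1a4 the reverse match begins 4 bases before it. A match is a description of these letters and not a measurement of binding.

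Of the 63 members 35 had enough counts to be tested and 28 did not. The untested ones include 15 of 21 members of the Slc6a family, among them the dopamine, serotonin and noradrenaline transporter genes Slc6a3, Slc6a4 and Slc6a2, and 22 of the 28 stayed under 10 counts in every library. Slc7a9, Slc7a12 and Slc38a5 had no count in any library, which allows up to 0.139 to 0.160 CPM (3 counts per library, counting error only). Across genes, levels were compared as TPM, which is scaled to transcript length. Slc3a2, the CD98 heavy chain, was first at 439, 271 and 298 TPM in HRP2-KO replicates 6, 7 and 44 and 320, 336 and 274 TPM in WT replicates 10, 11 and 12, and its range did not overlap that of the next gene. Next by mean TPM over the 6 libraries came the taurine carrier Slc6a6 (132 TPM), Slc38a10 (125 TPM), the sodium-coupled glutamine and alanine carrier Slc38a2 (107 TPM), the creatine carrier Slc6a8 (78.1 TPM), the glutamine carrier Slc1a5 (64.9 TPM), the light chain Slc7a8 (52.1 TPM), Slc43a2 (46.0 TPM), Slc1a6 (44.9 TPM) and the light chain Slc7a5 (38.7 TPM). Each of these overlapped its neighbour in that order. All members together made up 1416, 1416 and 862 TPM in HRP2-KO replicates 6, 7 and 44, against 1483, 1535 and 1359 TPM in WT replicates 10, 11 and 12.

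Carriers of both directions were found, and none passed the threshold in the fit to all 6 libraries. In edgeR's quasi-likelihood test over 13696 genes, adjusted p under 0.05, 0 of the 35 tested members were called, against 0.00730% of all tested genes (1 gene, lower in HRP2-KO). The targeted gene Hdgfl2 itself did not pass in this test (log2 fold change -2.79, adjusted p = 0.0711). At an unadjusted p under 0.05 there were 7 members higher and 3 lower in HRP2-KO, 28.6% of the 35 against 21.8% of all tested genes (12.7% higher and 9.10% lower). Non-overlapping groups were found in 10 members, against 31.0% of all tested genes. HRP2-KO was the higher group in 7 of the 35, where the background was 17.0%, and the lower group in 3 (8.57%), where it was 14.0%, so these shares are near the background. The median log2 fold change was 0.11 over the 35 members and 0.02 over all tested genes. DESeq2 gave adjusted p-values to 45 members and called 8 higher (17.8%, against 5.45% of its genes) and 1 lower (2.22%, against 4.62%). In either direction 10.1% of its genes were called. The 8 higher were Slc1a1, Slc1a4, Slc38a4, Slc43a1, Slc6a12, Slc6a9, Slc7a1 and Slc7a5, and the 1 lower was Slc7a8. Limma voom called no member (0 of 35, with 11 at an unadjusted p under 0.05) and 0.270% of all genes. Without HRP2-KO replicate 7 edgeR called 11 of 37 members, against 24.1% of all genes. Replicate 7 is the library that stood apart from its group, and with any other library left out no member was called. Of the 11, the 6 higher in HRP2-KO were Slc1a1, Slc1a4, Slc43a1, Slc6a9, Slc7a5 and Slc7a6os, and the 5 lower were Slc7a8, Slc43a2, Slc6a6, Slc7a2 and Slc38a9, beside 1694 higher and 1676 lower of 13983 genes. Of the 5 lower, all but Slc7a8 belong to the longest transcripts, the group that was lowest in HRP2-KO replicate 44. Slc7a8 belongs to the next-longest group, which was also low in that library (mean log2 deviation -0.30). The part of that length trend was not tested. The plot of fold changes gives all 35 members.

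**Figure D1:**
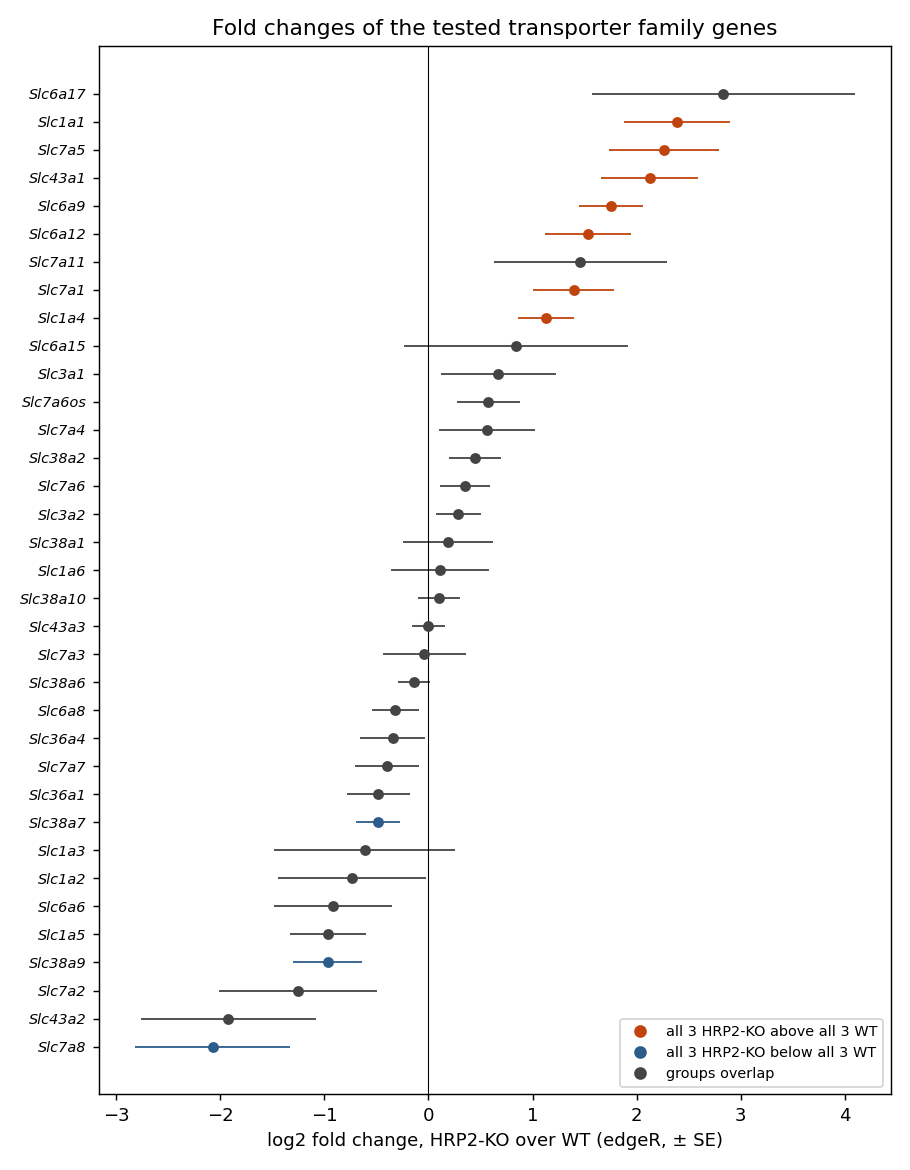
Log2 fold change of HRP2-KO over WT (x axis) for the 35 tested genes of the amino acid transporter families (y axis, sorted), from edgeR's fit to 6 libraries, with bars of 1 SE. Colours mark the 7 genes with all HRP2-KO libraries above all WT libraries and the 3 with all below, and the values run from -2.07 (Slc7a8) to 2.83 (Slc6a17, high in HRP2-KO replicate 7 alone).

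Among the light chains that pair with CD98, Slc7a5 was higher and Slc7a8 lower in every HRP2-KO library. Slc7a5 (LAT1, Entrez 20539, GRCm38.p6 chromosome 8, 121881146 to 121907686), the carrier of leucine and other large neutral amino acids, was at 205, 53.1 and 77.4 CPM in replicates 6, 7 and 44 of HRP2-KO, against 21.7, 27.8 and 20.4 CPM in WT replicates 10, 11 and 12. Every HRP2-KO library was above every WT library, with replicate 6 far above the other HRP2-KO libraries. It averaged 112 ± 81.8 CPM in HRP2-KO and 23.3 ± 3.98 CPM in WT (SD, n = 3 per genotype), a fitted 4.80-fold difference with a log2 fold change of 2.26 and an SE of 0.53. Without HRP2-KO replicate 6 the log2 fold change was 1.51 (edgeR adjusted p = 0.290). The difference did not pass with all 6 libraries (adjusted p = 0.111), and passed without HRP2-KO replicate 7 (adjusted p = 0.0171) and in DESeq2 (adjusted p = 0.00103).

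Slc7a8 (LAT2, Entrez 50934, chromosome 14, 54722215 to 54781886), the other CD98-bound carrier of neutral amino acids, had the opposite order. Its level was 13.2, 69.5 and 12.7 CPM in replicates 6, 7 and 44 of HRP2-KO, against 191, 109 and 101 CPM in WT replicates 10, 11 and 12. All HRP2-KO libraries were below WT, and replicate 7 lay several times above the other HRP2-KO libraries. The log2 fold change was -2.07 with an SE of 0.75 (edgeR adjusted p = 0.194, and 0.0148 without HRP2-KO replicate 7, where the log2 fold change was -3.32). The macrophage marker sums likewise were highest in WT replicate 10 and lowest in HRP2-KO replicates 6 and 44, and the part of macrophage content in this difference was not tested.

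The other 3 tested light chains overlapped between the groups on the CPM scale. On the TPM scale Slc7a7 was lower in every HRP2-KO library (17.65 to 18.53 TPM, against 19.87 to 36.87 TPM in WT). The median log2 fold change of all genes was also negative on log2(TPM + 1), at -0.21. Slc7a6 and Slc7a7 (y+LAT2 and y+LAT1), which exchange arginine or lysine for neutral amino acids, averaged 60.6 ± 18.6 and 17.4 ± 1.43 CPM in HRP2-KO, against 47.5 ± 3.50 and 23.0 ± 9.43 CPM in WT (SD, n = 3 each), with edgeR adjusted p of 0.409 and 0.451. Slc7a11 (xCT), the cystine and glutamate exchanger whose promoter is printed above, was at 9.42, 55.9 and 6.50 CPM in replicates 6, 7 and 44 of HRP2-KO, against 11.002, 8.31 and 6.78 CPM in WT. Replicate 7 alone was high, and the log2 fold change of 1.46 (SE 0.83, adjusted p = 0.330) became -0.09 without it (adjusted p = 0.852). Replicate 7 was also the library with the highest interferon-response sum, and the part of that response was not tested. Slc7a13 had 46 counts in WT replicate 12 and at most 7 elsewhere, while Slc7a10 and Slc7a15 stayed at 4 counts or fewer.

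The heavy chains themselves differed less. Slc3a2 (Entrez 17254, chromosome 19, 8706882 to 8723369) averaged 357 ± 62.1 CPM in HRP2-KO and 292 ± 32.0 CPM in WT (SD, n = 3 each), a log2 fold change of 0.29 with an SE of 0.21 (adjusted p = 0.434). Slc3a1, the heavy chain known from kidney and gut, was below 1 CPM in every library. Summed light-chain TPM was 0.450, 0.469 and 0.275 times that of Slc3a2 in HRP2-KO replicates 6, 7 and 44, against 0.609, 0.434 and 0.490 times in WT replicates 10, 11 and 12, and the groups overlapped (exact permutation p = 0.3, two-sided).

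Within the light chains the make-up differed in each library. Slc7a5 held 62.5%, 23.1% and 42.6% of summed light-chain TPM in HRP2-KO replicates 6, 7 and 44, against 6.63%, 12.8% and 9.65% in WT replicates 10, 11 and 12. Slc7a8 held 4.06%, 31.4% and 8.30% in HRP2-KO, against 60.4%, 51.2% and 48.5% in WT. Both shares separated the groups, and replicate 7 lay nearest to WT in each. The exact permutation test gave p = 0.1 for each, two-sided, the smallest p that 3 against 3 libraries allow (Benjamini-Hochberg adjusted p = 0.225 over 9 such measures, which were chosen after the values were seen). Slc7a6 held 21.7% to 25.0% in HRP2-KO and 12.5% to 22.2% in WT.

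**Figure D2:**
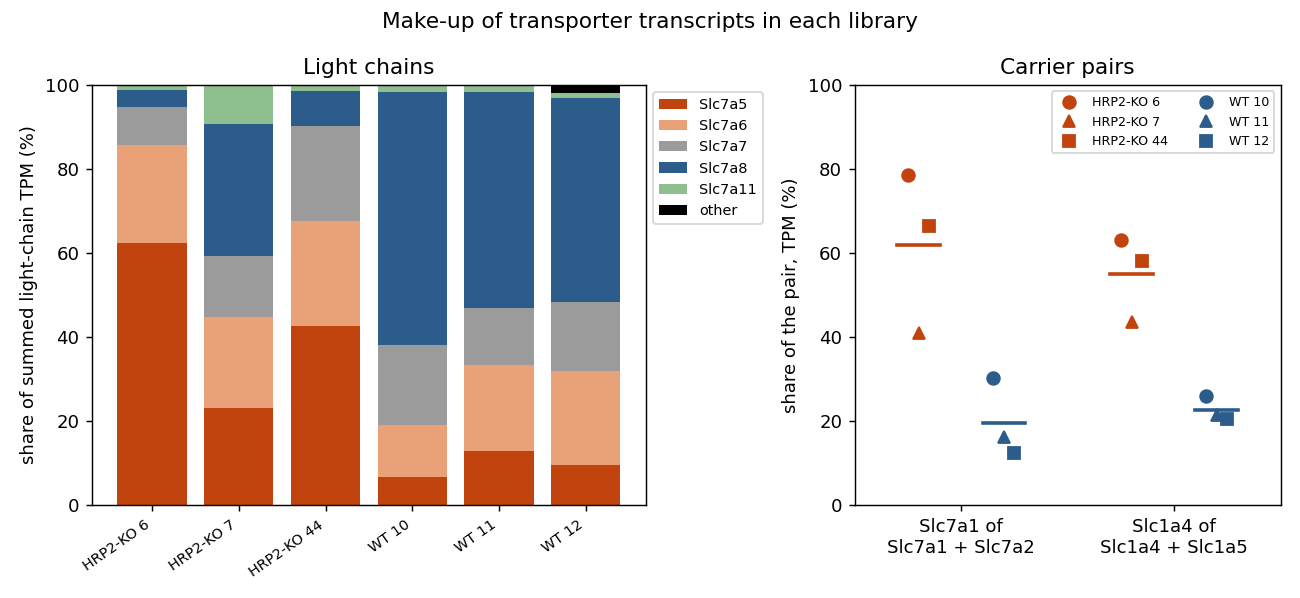
Left, share of each SLC7 light chain in the summed light-chain TPM (percent, y axis) in each library (x axis), with all other light chains in black. Right, share of Slc7a1 in the sum of Slc7a1 and Slc7a2 and of Slc1a4 in the sum of Slc1a4 and Slc1a5 (percent of TPM, y axis), with lines at group means. Slc7a5 runs from 23.1% to 62.5% in HRP2-KO and stays at or below 12.8% in WT.

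Among the cationic carriers, which take up arginine, lysine and ornithine, Slc7a1 was the higher and Slc7a2 the lower in most HRP2-KO libraries. Slc7a1 (CAT1, Entrez 11987, chromosome 5, 148327410 to 148399904) was at 113, 92.7 and 41.2 CPM in replicates 6, 7 and 44 of HRP2-KO, against 32.5, 36.4 and 24.9 CPM in WT replicates 10, 11 and 12. The groups did not overlap on the CPM scale and did on the TPM scale, where HRP2-KO replicate 44 was at 9.18 TPM and WT replicate 10 at 9.51 TPM. Its log2 fold change was 1.39 with an SE of 0.39 (edgeR adjusted p = 0.140, DESeq2 adjusted p = 0.0169, and edgeR adjusted p = 0.0614 without HRP2-KO replicate 7). Slc7a1 belongs to the longest transcripts, the group that was low in HRP2-KO replicate 44.

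Slc7a2 (CAT2), which macrophages are also known to use for arginine uptake, was at 33.4, 145 and 22.7 CPM in replicates 6, 7 and 44 of HRP2-KO, against 81.6, 205 and 192 CPM in WT. HRP2-KO replicate 7 lay within the WT range, so the groups overlapped (log2 fold change -1.25, SE 0.76, edgeR adjusted p = 0.356). Without that library the log2 fold change was -2.48 and passed (adjusted p = 0.0224). With HRP2-KO replicate 44 left out instead, the log2 fold change was -0.88 (edgeR adjusted p = 0.550). Slc7a2 too belongs to the longest transcripts, the group that was low in HRP2-KO replicate 44. Slc7a1 made up 78.7%, 40.9% and 66.5% of the TPM of the pair in HRP2-KO replicates 6, 7 and 44, against 30.3%, 16.2% and 12.4% in WT (exact permutation p = 0.1, two-sided, the smallest possible, adjusted p = 0.225). Slc7a3 and Slc7a4 were at most 4.36 CPM, and Slc7a14, a lysosomal relative, had at most 12 counts.

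Of the carriers that move large neutral amino acids without a heavy chain, Slc43a1 (LAT3) was at 4.34, 5.88 and 5.01 CPM in replicates 6, 7 and 44 of HRP2-KO, against 0.592, 1.80 and 1.08 CPM in WT replicates 10, 11 and 12. The groups were well apart at a low level, with a log2 fold change of 2.12 and an SE of 0.47 (edgeR adjusted p = 0.109, and 0.0388 without HRP2-KO replicate 7). Slc43a2 (LAT4) was at 22.4, 128 and 18.8 CPM in HRP2-KO, against 336, 183 and 123 CPM in WT. On the CPM scale replicate 7 again lay among the WT libraries. It was below them on the TPM scale, at 40.04 TPM against 42.16 TPM in WT replicate 12. The log2 fold change of -1.92 (SE 0.84, adjusted p = 0.244) became -3.33 without replicate 7 (adjusted p = 0.0165). It was -1.53 without HRP2-KO replicate 44 (edgeR adjusted p = 0.403). Slc43a3, which carries purine nucleobases, averaged 30.7 ± 3.02 CPM in HRP2-KO and 30.7 ± 1.59 CPM in WT.

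The SLC1 family holds carriers of glutamate and of small neutral amino acids, and 2 of its 6 tested members were higher in every HRP2-KO library, a pattern that 17.0% of all tested genes showed. Slc1a4 (ASCT1, Entrez 55963, chromosome 11, 20302180 to 20332713), which exchanges serine, alanine and threonine, was at 125, 84.1 and 83.6 CPM in replicates 6, 7 and 44 of HRP2-KO, against 32.5, 53.5 and 47.6 CPM in WT replicates 10, 11 and 12. All HRP2-KO libraries were above WT, replicate 7 as much as replicate 44, with a log2 fold change of 1.13 and an SE of 0.27 (edgeR adjusted p = 0.114, and 0.0296 without HRP2-KO replicate 7). Slc1a1 (EAAT3, Entrez 20510, chromosome 19, 28835135 to 28913960), a carrier of glutamate, aspartate and cysteine, was at 12.1, 7.76 and 11.01 CPM in HRP2-KO, against 2.17, 2.91 and 0.801 CPM in WT. Its log2 fold change was 2.39 with an SE of 0.51 (adjusted p = 0.108, and 0.0241 without HRP2-KO replicate 7). Of its 8257 exonic bases 2631 overlap 4430402I18Rik on the other strand, and without known use of strand such reads cannot be assigned. That gene was at 1.46 to 1.66 CPM in HRP2-KO and 1.83 to 2.40 CPM in WT.

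Slc1a5 (ASCT2), the main sodium-coupled glutamine carrier of many growing cells, was at 51.3, 76.4 and 41.9 CPM in replicates 6, 7 and 44 of HRP2-KO, against 65.0, 137 and 129 CPM in WT replicates 10, 11 and 12. WT replicate 10 lay inside the HRP2-KO range, and the log2 fold change of -0.97 (SE 0.36) did not pass (edgeR adjusted p = 0.202). Slc1a4 made up 63.0%, 43.5% and 58.2% of the TPM of Slc1a4 and Slc1a5 in HRP2-KO, against 25.9%, 21.5% and 20.4% in WT, with no overlap (exact permutation p = 0.1, two-sided, the smallest possible, adjusted p = 0.225). Slc1a6, a glutamate carrier known from Purkinje neurons, was at 43.6, 81.4 and 20.3 CPM in HRP2-KO and 45.5, 48.8 and 40.5 CPM in WT. The glial glutamate carriers Slc1a2 and Slc1a3 were at most 1.51 and 15.8 CPM and overlapped between groups, and the retinal Slc1a7 was not tested.

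In the SLC6 family Slc6a9 (GlyT1, Entrez 14664, chromosome 4, 117835258 to 117869305), which takes up glycine, had the smallest p of the 35 tested members. The level was 47.4, 24.6 and 33.3 CPM in replicates 6, 7 and 44 of HRP2-KO, against 8.09, 12.5 and 10.5 CPM in WT replicates 10, 11 and 12. Every HRP2-KO library was well above every WT library, with means of 35.1 ± 11.5 CPM in HRP2-KO and 10.4 ± 2.22 CPM in WT (SD, n = 3 per genotype), a log2 fold change of 1.76 and an SE of 0.31 (edgeR adjusted p = 0.0966, 0.0159 without HRP2-KO replicate 7, DESeq2 adjusted p = 0.000103). Of its 5141 exonic bases 1429 overlap Ccdc24 on the other strand, which was at 3.66, 1.498 and 3.22 CPM in HRP2-KO and 0.444, 1.20 and 1.22 CPM in WT. Slc6a12, a carrier of betaine and GABA, was at 4.83, 6.47 and 4.46 CPM in HRP2-KO, against 1.09, 1.75 and 2.59 CPM in WT (log2 fold change 1.53, SE 0.41, adjusted p = 0.131).

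Slc6a6, the taurine carrier, was at 151, 500 and 128 CPM in replicates 6, 7 and 44 of HRP2-KO, against 653, 427 and 392 CPM in WT replicates 10, 11 and 12. Replicate 7 was within the WT range, and the log2 fold change of -0.92 (SE 0.57, edgeR adjusted p = 0.366) became -1.77 without it (adjusted p = 0.0186). Without HRP2-KO replicate 44 the log2 fold change was -0.62 (edgeR adjusted p = 0.572). Slc6a8, the creatine carrier on chromosome X, averaged 132 ± 30.1 CPM in HRP2-KO and 165 ± 19.6 CPM in WT (adjusted p = 0.421). Its groups overlapped on the CPM scale and nearly touched on the TPM scale (40.71 to 79.4 TPM in HRP2-KO, 80.93 to 110.95 TPM in WT). Slc6a17, known from synaptic vesicles, reached 81.7 CPM in HRP2-KO replicate 7 and at most 6.37 CPM in any other library, while Slc6a15 was at 0.0535 CPM in that replicate and 0.739 to 3.32 CPM elsewhere. The log2 fold change of Slc6a17 was 2.83 (adjusted p = 0.248), and 0.19 without HRP2-KO replicate 7.

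**Figure D3:**
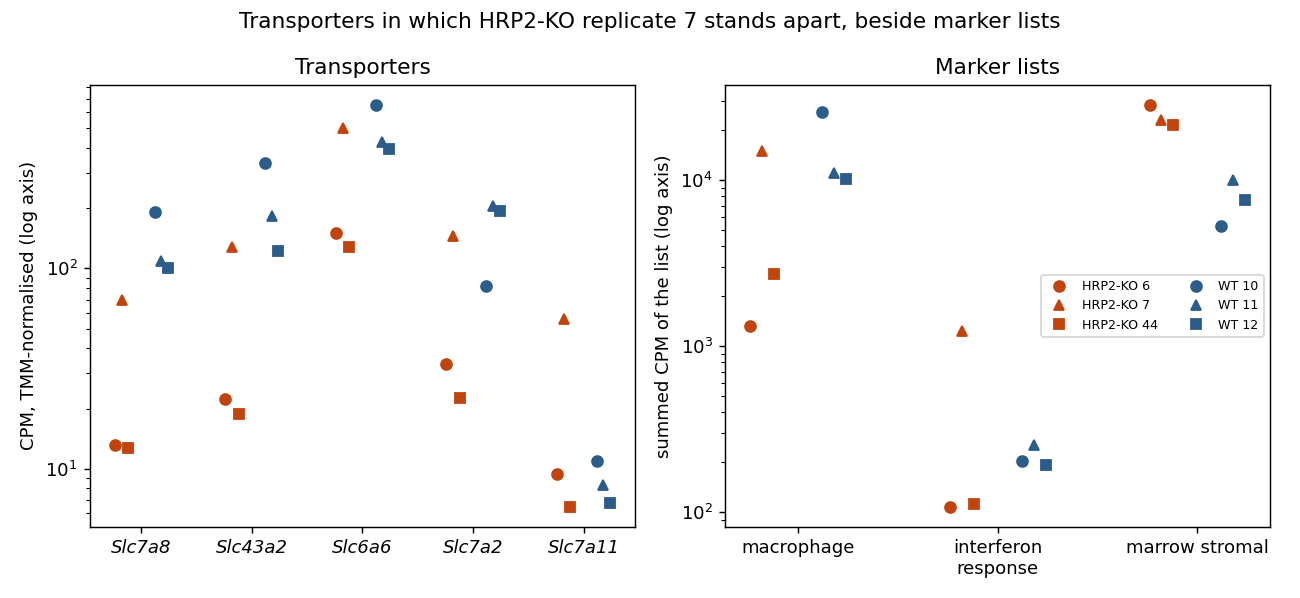
Left, TMM-normalised CPM (log axis) of 5 transporter genes in each library. Right, summed CPM (log axis) of 3 marker lists. HRP2-KO replicate 7 (orange triangle) lies nearer to WT than the other HRP2-KO libraries, or within its range, for Slc7a8, Slc43a2, Slc6a6, Slc7a2 and the macrophage sum, and stands above all others for Slc7a11 and the interferon-response sum.

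Several members act at the lysosome or related membranes. Slc38a9 (Entrez 268706, chromosome 13, 112656189 to 112738752), the lysosomal arginine sensor of mTORC1, was at 8.78, 14.8 and 6.74 CPM in replicates 6, 7 and 44 of HRP2-KO, against 22.9, 18.7 and 17.7 CPM in WT replicates 10, 11 and 12. All HRP2-KO libraries were below WT, with a log2 fold change of -0.97 and an SE of 0.33 (edgeR adjusted p = 0.186, and 0.0222 without HRP2-KO replicate 7). Slc38a7, a lysosomal glutamine exporter, was at 35.4, 47.2 and 34.9 CPM in HRP2-KO, against 65.9, 50.3 and 47.9 CPM in WT (HRP2-KO replicate 7 and WT replicate 12 nearly touch, log2 fold change -0.48, SE 0.21, adjusted p = 0.245). Slc36a1, a proton-coupled carrier of small amino acids whose promoter holds the E-box, averaged 36.1 ± 12.7 CPM in HRP2-KO and 50.4 ± 11.4 CPM in WT and overlapped (adjusted p = 0.373), as did its relative Slc36a4 (27.7 ± 11.1 and 35.2 ± 4.87 CPM, adjusted p = 0.512). Macrophages are rich in lysosomes, and in each of these 4 genes the highest library was WT replicate 10, the library with the highest macrophage sum, a link that was not tested. Slc38a9, Slc36a1 and Slc36a4 also belong to the longest transcripts, the group that was low in HRP2-KO replicate 44. That library was the lowest for each of them, and the part of the length trend was not tested.

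The other 4 tested members of the SLC38 family overlapped between the groups on the CPM scale. On the TPM scale Slc38a6 was lower in every HRP2-KO library (19.76 to 22.72 TPM, against 27.13 to 29.24 TPM in WT). The median log2 fold change of all genes was itself -0.21 on log2(TPM + 1). Slc38a2 (SNAT2), a known target of amino acid shortage, was at 296, 341 and 206 CPM in replicates 6, 7 and 44 of HRP2-KO, against 179, 200 and 238 CPM in WT replicates 10, 11 and 12 (log2 fold change 0.45, SE 0.25, edgeR adjusted p = 0.321). Slc38a1 averaged 39.6 ± 22.0 CPM in HRP2-KO and 34.8 ± 6.15 CPM in WT, Slc38a6 53.9 ± 5.80 and 59.2 ± 1.79 CPM, and Slc38a10 249 ± 44.2 and 232 ± 17.1 CPM. Slc38a4, too low for the edgeR test, had 6, 105 and 21 counts in HRP2-KO, against 5, 3 and 9 in WT, and was among the 8 genes that DESeq2 called higher, with most of its counts from HRP2-KO replicate 7. Slc7a6os averaged 27.1 ± 10.0 CPM in HRP2-KO and 18.2 ± 2.03 CPM in WT (adjusted p = 0.302).

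Genes that act with the carriers were taken from 5 lists, of which none had a member past the threshold over all genes in edgeR's fit to 6 libraries. The lists share genes, among them Chac1, Cth and Gpt2, so their counts are not independent of each other. In the amino acid response list, made up of GCN2, the other eIF2α kinases, ATF4 and non-carrier targets, 21 of 29 tested genes had a positive log2 fold change, with a median of 0.74 beside 0.02 for all tested genes. At an unadjusted p under 0.05 14 were higher, against 12.7% of all tested genes, and 1 was lower (against 9.10%). DESeq2 called 11 higher, against 5.45% of its genes. Without HRP2-KO replicate 7 edgeR called 12 higher and 1 lower of 29, beside 1694 higher and 1676 lower of 13983 genes. Aldh18a1, the first enzyme of proline synthesis from glutamate, was at 200, 141 and 150 CPM in replicates 6, 7 and 44 of HRP2-KO, against 33.7, 54.7 and 48.5 CPM in WT (log2 fold change 1.84, SE 0.26, adjusted p = 0.0802). The mitochondrial folate enzymes Mthfd2 and Shmt2 had log2 fold changes of 2.15 and 1.83 with adjusted p of 0.0866 and 0.0913. Atf4 itself averaged 360 ± 64.3 CPM in HRP2-KO and 242 ± 27.4 CPM in WT (log2 fold change 0.57, adjusted p = 0.207), and was named after its values were seen. The 1 gene that was lower at an unadjusted p under 0.05 was Atf3 (log2 fold change -1.94, adjusted p = 0.219). Atf3 was likewise named after its values were seen.

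Enzymes that use the carried amino acids gave the lowest adjusted p of these lists. Bcat1, which starts the breakdown of leucine, isoleucine and valine in the cytosol, was at 111, 60.5 and 104 CPM in replicates 6, 7 and 44 of HRP2-KO, against 9.37, 11.8 and 7.72 CPM in WT replicates 10, 11 and 12. Even the lowest HRP2-KO library was several times above WT, with a log2 fold change of 3.25 and an SE of 0.31 (edgeR adjusted p = 0.0575, and 0.00966 without HRP2-KO replicate 7). Gpt2, an alanine aminotransferase, averaged 25.6 ± 8.27 CPM in HRP2-KO and 13.0 ± 3.40 CPM in WT, and Glud1, glutamate dehydrogenase, averaged 224 ± 16.6 CPM in HRP2-KO and 329 ± 40.7 CPM in WT. Of 16 tested glutamine, arginine and branched-chain enzymes 11 had positive fold changes. An unadjusted p under 0.05 was found for 2 of the 16 in each direction, near the 12.7% higher and 9.10% lower among all tested genes.

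Of 19 tested cysteine and glutathione genes 8 had positive fold changes, with a median log2 fold change of -0.03. At an unadjusted p under 0.05 in edgeR 2 were higher and 1 lower, against 12.7% higher and 9.10% lower among all tested genes. Chac1, which degrades glutathione, averaged 22.4 ± 8.77 CPM in HRP2-KO and 8.27 ± 2.28 CPM in WT. Cth, which makes cysteine from cystathionine, averaged 15.3 ± 6.96 and 3.48 ± 1.81 CPM. Both genes are also in the amino acid response list. Nfe2l2, the antioxidant transcription factor NRF2, averaged 128 ± 19.0 CPM in HRP2-KO and 196 ± 47.5 CPM in WT. Of 30 tested genes of amino acid sensing by mTORC1 21 had negative fold changes (median log2 fold change -0.12). Only 1 was higher and 1 lower at an unadjusted p under 0.05, fewer than the shares over all tested genes. Sesn1, a sestrin, averaged 21.7 ± 5.78 CPM in HRP2-KO and 37.0 ± 8.59 CPM in WT (edgeR adjusted p = 0.192). Tfeb, the lysosomal transcription factor, averaged 11.6 ± 1.09 and 17.0 ± 3.63 CPM (edgeR adjusted p = 0.233). Mlst8, an mTOR subunit, averaged 24.3 ± 3.56 and 16.8 ± 0.965 CPM (edgeR adjusted p = 0.192).

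Of 17 tested amino acid carriers of other families 12 had negative fold changes (median log2 fold change -0.19). At an unadjusted p under 0.05 in edgeR 1 was higher and 1 lower, against 12.7% higher and 9.10% lower among all tested genes. Ctns, the lysosomal cystine exporter, was at 16.5, 20.1 and 13.8 CPM in replicates 6, 7 and 44 of HRP2-KO, against 33.5, 26.0 and 23.3 CPM in WT replicates 10, 11 and 12, with no overlap (log2 fold change -0.72, SE 0.23, edgeR adjusted p = 0.172, and 0.0493 without HRP2-KO replicate 7). Sfxn1, the mitochondrial serine carrier, averaged 72.2 ± 22.0 CPM in HRP2-KO and 41.8 ± 3.80 CPM in WT (log2 fold change 0.79, adjusted p = 0.174). Slc25a13, the mitochondrial aspartate and glutamate exchanger, averaged 10.2 ± 2.68 and 6.66 ± 0.966 CPM and overlapped.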

How the data were processed

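The read aligner BWA and the mouse build GRCm38.p6 are listed in the submitters' processing notes, with no further detail. The gene assignment program, its annotation and its use of strand were not given in the sources used here. Overlapping genes and close paralogs are therefore uncertain. The authors deposited estimated counts per gene without normalization, TPM values scaled to length and to a common total, and FPKM values, which also account for length and depth, as the file headers name them. The 24 columns of averages and 6 of normalised counts were not used. Estimated counts were rounded, filtered with filterByExpr (minimum count 10, total 15), which left 13696 of 18853 genes, scaled by TMM, and tested with edgeR 4.0.16 (R 4.3.3, quasi-likelihood, genotype alone, two-sided, Benjamini-Hochberg over all genes, threshold 0.05). The SE is the log2 fold change divided by the square root of F. TPM served for levels between genes, and FPKM with counts for transcript length. CPM of untested members uses the same factors.

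Members, lists and tests were chosen with earlier results of these data known, so patterns shared with those are not independent support. Genes named are Hdgfl2, members at 5 CPM or more in the higher group whose groups do not overlap or whose unadjusted p is under 0.05, the 10 highest by TPM, the tested heavy and light chains, and the 3 smallest p of each pathway list. Other members were named after their values were seen. The edgeR step was tested on simulated data. The labels name no batch, so batch and genotype cannot be told apart. No pair of libraries agreed within sampling noise (smallest chi-square per degree of freedom 49.9). Alternatives used DESeq2 1.42.0 and limma 3.58.1. Promoter windows and gene positions come from RefSeq on GRCm38.p6, exon overlaps from GENCODE M21, and figures from matplotlib 3.10.9.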

Additional observations from a re-analysis of the deposited data

How the results depend on the processing

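No paired analysis was possible because the replicate numbers are not shared between the genotypes. Of 22 named members 19 kept their direction under each alternative run, which were 14 for every member except Slc3a1, with 11, because it was too low for the filters on CPM and TPM. The exceptions were Slc1a6 (log2 fold change -0.11 with limma voom, -0.34 and -0.36 on log2(TPM + 1) and log2(TPM + 0.1), and -0.46 to 0.46 with a replicate left out), Slc38a10 (-0.15 on both TPM scales, and -0.0082 to 0.19 with a replicate left out) and Slc7a11 (-0.088 to 1.88 with a replicate left out), each negative only without HRP2-KO replicate 7 among these, and the cause was not tested. The TPM scales shifted the median of all genes to -0.21 and -0.24. Genes called in all numbered 1553 with DESeq2, 37 with limma voom, 42 and 27 on the TPM scales, and 0 to 3370 with a replicate left out, the highest without HRP2-KO replicate 7 and the lowest without HRP2-KO replicate 44. Members called were 8 higher and 1 lower with DESeq2, and 0 to 6 higher and 0 to 5 lower with a replicate left out, all of them without HRP2-KO replicate 7. Members at an unadjusted p under 0.05 numbered 10 in the fit to all libraries, 17 of 60 with no filter, and 8 to 20 with a replicate left out. Members with all HRP2-KO values below WT numbered 3, against 8 with no filter, 7 on either TPM scale, and 3 to 12 with a replicate left out. For members at an unadjusted p under 0.05 and members below WT, shares over all genes are given only for the fit to all libraries. With a replicate left out, groups separate more readily in any gene. The changed counts are therefore not read as a result about the members. A gene under about 0.160 CPM is at the limit of 3 counts.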
